A study of Homo sapiens with 18 samples.

Results

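The 10 genes described here encode enzymes and a carrier of the urea cycle (CPS1, NAGS, OTC, ASS1, ASL, ARG1 and SLC25A15) and enzymes that degrade amino acids or remethylate homocysteine (BHMT, HAL and TDO2). They were chosen by name, with earlier results of these data known. All 10 were measured, each by 1 array feature, among 18404 genes in all. They are followed in HepG2, an established human hepatocellular carcinoma line, with and without thyroid hormone and with and without added thyroid hormone receptors.

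The urea cycle converts toxic ammonia into urea, and in the body it runs at full scale only in liver. Its first steps lie in the mitochondrion, where N-acetylglutamate made by NAGS switches on CPS1, CPS1 makes carbamoyl phosphate and OTC joins it to ornithine. The later steps, catalysed by ASS1, ASL and ARG1, lie in the cytosol, and SLC25A15 carries ornithine back into the mitochondrion. Thyroid hormone (T3) acts through nuclear receptors that bind DNA and change transcription, and it is long known to alter protein and amino acid turnover.

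HepG2 clones selected with G418 and carrying an expression plasmid for the receptor TRα1 (6 clones), for TRβ1 (12 clones) or the empty plasmid (11 clones, called control here) were mixed, 1 pool for each construct. The pools were given 100 nM T3 or its ethanol carrier, called vehicle here, for 6 h, and all groups shared a medium whose 10% serum had been stripped of hormones. The 6 groups had 3 arrays each, labelled as independent biological repeats and numbered 1 to 3. The series title names shared targets of both receptor isoforms and how their activity differs. With 1 pool per construct, an effect of the receptor and of the clones that went into a pool cannot be told apart.

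Values are log2 expression after RMA, a normalization that makes arrays comparable, and a difference of 1 stands for a doubling of the signal. The array medians lay between 5.31 and 5.49, and the precision is limited by the number of arrays. All 9 hepatocyte markers looked at lay above the table's median feature, from TTR at 10.7 to ALB at 12.7. So did 4 of 5 cholangiocyte, 3 of 5 stellate or fibroblast, 2 of 5 macrophage or leukocyte and 0 of 4 endothelial markers. The receptor gene THRA was higher by 0.69 ± 0.10 (SE) in the TRα1 pool than in the control pool over vehicle and T3 (limma, adjusted p = 0.0014). THRB was higher by 0.33 ± 0.10 in the TRβ1 pool than in control, in 6 of 6 pairs. Its adjusted p was 0.403, which became 0.037 with the array number as a block. THRB was also higher on T3, by 0.45 ± 0.085 averaged over the pools (limma, adjusted p = 0.0237) and by 0.43 in control. On vehicle alone its values in TRβ1 and control overlapped. Arrays with the same number resembled each other across groups, so each result is read from the linear model without the number and, where that changes a call or a count, from the model with the number as a block.

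**Figure D1:**
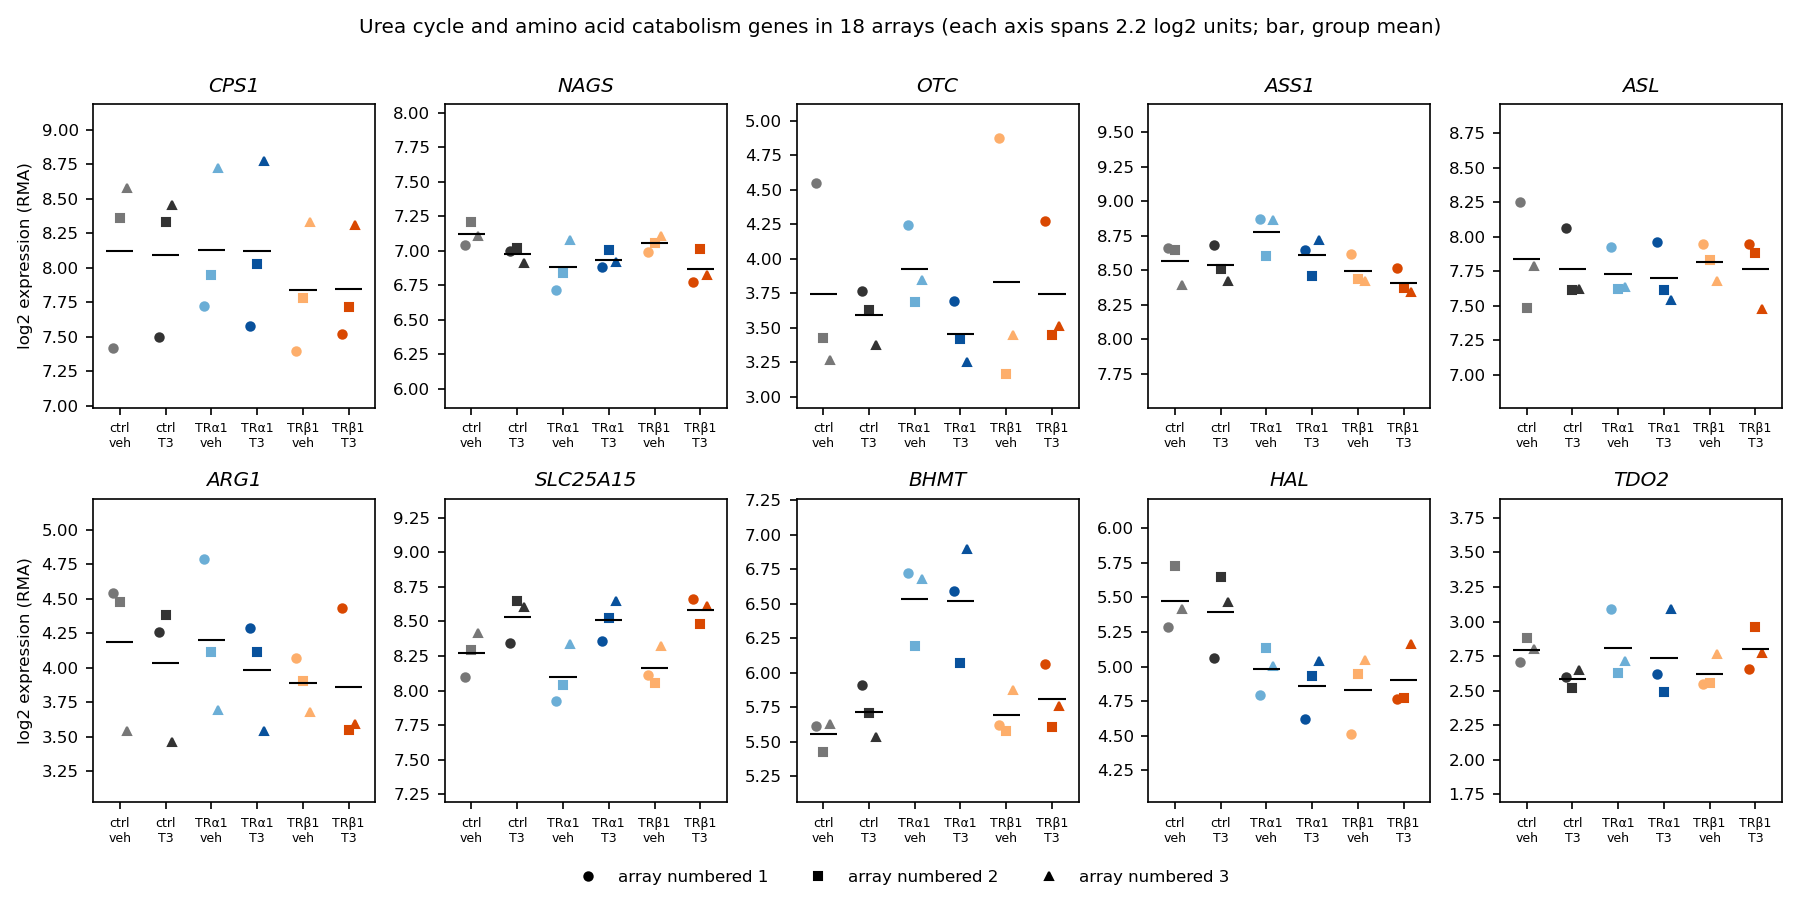
Log2 expression of the 10 genes on all 18 arrays, by pool and treatment, with the array number as the symbol and a bar at each group mean; every axis spans the same 2.2 log2 units. CPS1 separates by array number (7.40 to 7.72 for number 1 and 8.31 to 8.77 for number 3), BHMT by the TRα1 pool (6.07 to 6.90), and SLC25A15 by T3 in the TRα1 and TRβ1 pools, while its values on vehicle and T3 overlap in the control pool.

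The level plot shows 3 patterns: array number for CPS1, OTC, ASL and ARG1, pool for BHMT and HAL, and T3 for SLC25A15. The array number held 82.7% of the sum of squares of CPS1, 68.8% of that of ARG1, 68.7% of that of ASL and 62.8% of that of OTC. For BHMT the 6 groups held 78.7%, for SLC25A15 68.7% and for HAL 63.4%. Each share is a description of these 18 arrays.

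The sequence before the start is shown for the 3 members that passed a test by either model. BHMT passed by both, and SLC25A15 and HAL with the array number as a block but not without it. The sequence is given because a receptor that acts directly does so at DNA, and direct action on these genes was not tested. RefSeq (GRCh38.p14) gives a start for 10 of 10 members, in 13 windows of 250 bases ending at the base before the start. Capitals mark any match on either strand to the hexamer AGGNCA, a loose form of AGGTCA, the core sequence that thyroid hormone receptors are known to bind, and to TATAAA, the TATA box. The windows are SLC25A15 at chr13:40789361-40789610 on the plus strand, BHMT at chr5:79111559-79111808 on the plus strand and HAL at chr12:95996345-95996594 on the minus strand, each written 5′ to 3′ along its gene.
SLC25A15: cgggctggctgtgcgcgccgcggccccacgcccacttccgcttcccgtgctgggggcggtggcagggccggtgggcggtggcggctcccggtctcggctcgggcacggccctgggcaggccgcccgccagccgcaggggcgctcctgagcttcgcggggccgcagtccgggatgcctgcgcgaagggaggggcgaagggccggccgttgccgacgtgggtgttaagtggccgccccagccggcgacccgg
BHMT: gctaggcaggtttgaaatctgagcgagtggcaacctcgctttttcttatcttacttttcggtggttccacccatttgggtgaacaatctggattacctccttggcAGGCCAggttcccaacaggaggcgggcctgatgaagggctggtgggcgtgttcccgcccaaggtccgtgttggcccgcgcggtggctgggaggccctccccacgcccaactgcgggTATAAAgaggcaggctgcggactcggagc
HAL: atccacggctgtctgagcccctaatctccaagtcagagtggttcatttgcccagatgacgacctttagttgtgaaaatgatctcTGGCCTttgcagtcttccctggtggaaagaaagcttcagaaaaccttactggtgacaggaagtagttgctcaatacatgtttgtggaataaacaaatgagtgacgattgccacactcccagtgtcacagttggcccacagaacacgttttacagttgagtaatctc

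The 3 windows were unlike in composition. SLC25A15 had 35 CpG pairs and 79.6% G and C, BHMT had 14 and 60.4%, and HAL had 4 and 45.6%, where the median of all 35116 windows was 11 CpG pairs. The SLC25A15 window held none of the capitals. In BHMT, AGGCCA began 145 bases and TATAAA 29 bases before the start, and in HAL the letters TGGCCT, which read AGGCCA on the other strand, began 166 bases before it. AGGNCA occurs in 47.3% of all windows and in those of 6 of 10 members, TATAAA in 10.7% and in 4 members, and AGGTCA in 12.1% and in 0 members. Direct repeats of AGGTCA with 4 bases between them were found in 0.0142% of windows and in 0 members. AGGTCA is contained in AGGNCA, and a match or its lack describes only these letters in these windows.

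The first comparison asks what T3 did to the 10 genes over 6 h. SLC25A15, the mitochondrial ornithine carrier, stood higher on T3 in every one of the 9 same-numbered pairs of arrays, and it was the member with the largest T3 difference averaged over the pools. In the TRα1 pool it measured 7.92, 8.04 and 8.33 on vehicle (arrays 1, 2 and 3) and 8.36, 8.53 and 8.65 on T3. The TRβ1 pool read 8.11, 8.05 and 8.33 on vehicle and 8.66, 8.48 and 8.61 on T3. Control read 8.10, 8.29 and 8.42 on vehicle and 8.34, 8.65 and 8.61 on T3. Every T3 array of both receptor pools lay above every vehicle array of its pool, while in the control pool array 1 on T3 lay below array 3 on vehicle. Such separation was seen for 5.26% of features with TRα1, 5.04% with TRβ1 and 6.16% in control.

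Averaged over the pools, the T3 difference of SLC25A15 was 0.36 ± 0.077 (SE), a ratio of 1.29, with a 95% interval of 0.20 to 0.53. It missed the threshold of 0.05 in limma's test without the block (adjusted p = 0.0555) and passed with the array number as a block (adjusted p = 0.00118). Of all features, 2.04% were higher on T3 in all 9 pairs and 3.84% differed one way in all 9. With 1 array left out, limma's adjusted p without the block was 0.0268 to 0.152. The difference passed only without array 3 of the TRα1 vehicle group (0.0268), array 1 of the TRα1 T3 group (0.0472) or array 1 of the control T3 group (0.036). In RNA from whole cultures, more RNA per cell and a larger share of cells with the RNA cannot be told apart.

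The SLC25A15 difference on T3 was 0.41 ± 0.13 (SE, n = 3 pairs of 0.44, 0.48 and 0.31) with TRα1. It was 0.42 ± 0.13 with TRβ1 (0.55, 0.43 and 0.29) and, in the control pool without an added receptor, 0.26 ± 0.13 (0.24, 0.35 and 0.19). The response did not differ between pools beyond its error. TRα1 exceeded control by 0.15 (95% interval -0.25 to 0.55), TRβ1 exceeded control by 0.16 (-0.24 to 0.56), and TRβ1 exceeded TRα1 by 0.0087 (-0.39 to 0.41), each with an adjusted p of 1 in limma. With the block the intervals were -0.13 to 0.43, -0.12 to 0.44 and -0.27 to 0.29, in the same order. By either model, those against control leave room for a difference as large as the response itself. Each receptor pool exceeded control in 3 of 3 pairs, and TRβ1 exceeded TRα1 in 1 of 3.

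**Figure D2:**
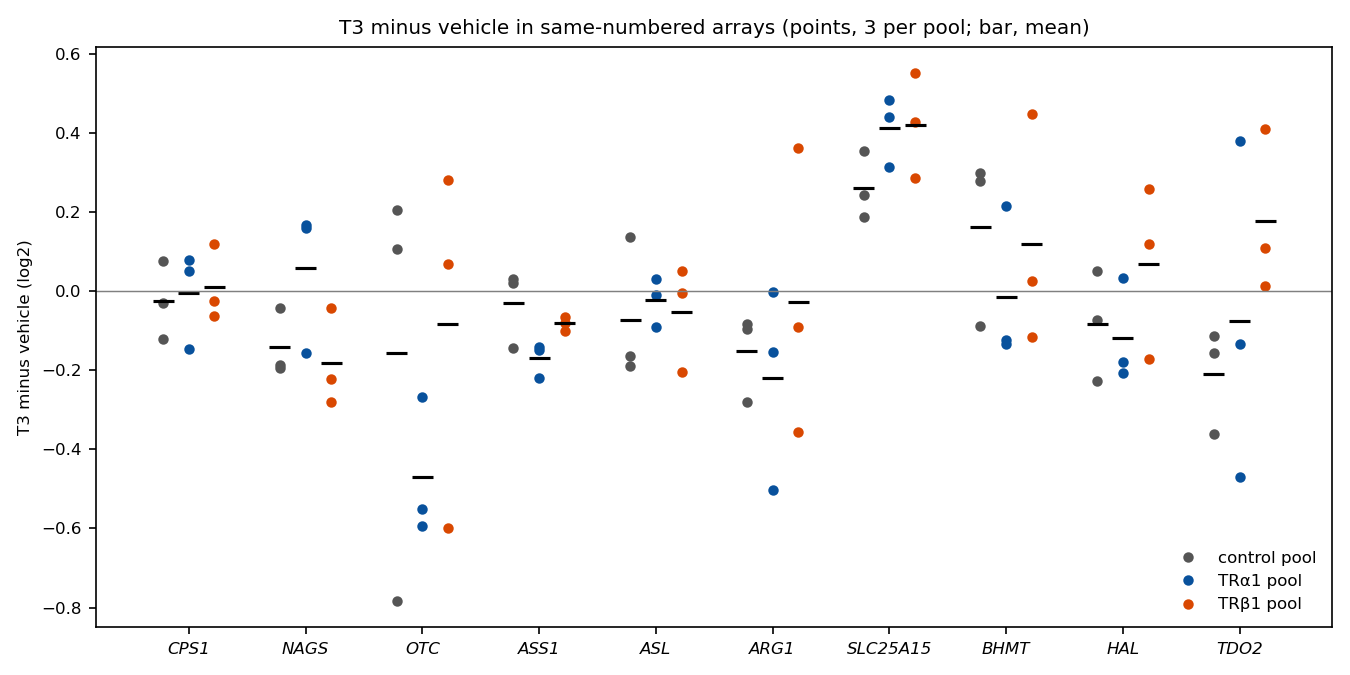
T3 minus vehicle (log2) for each of the 10 genes in the same-numbered arrays of the TRα1, TRβ1 and control pools, 3 points per pool with a bar at their mean. The 9 points of SLC25A15 all lie above 0, between 0.19 and 0.55, and no other gene has its 9 points on one side.

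RefSeq lists 5 pseudogene symbols named after SLC25A15, and RNA of such copies could bind to its feature. Its close relative SLC25A2, a second ornithine carrier, is measured by a feature of its own and had an averaged T3 difference of 0.051 ± 0.094 (SE), with adjusted p-values of 1 (no block) and 0.889 (block). The same caution holds for ASS1, with 14 pseudogene symbols, and for ASL, with 1.

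No other member passed the test for T3. By limma's test without the block, 0 of 10 members passed for TRα1 (0.131% of all features did), 0 for TRβ1 (0.073%), 0 for control (0.00973%) and 0 in the average (0.423%). At an unadjusted p under 0.05 the members numbered 1, 1, 0 and 1, each of them SLC25A15. Of all 20546 features, 523, 457, 417 and 784 had such a p. With the block, 0 of 10 passed in each pool, where 0.667%, 0.477% and 0.0973% of features did, and 1 of 10, SLC25A15, passed in the average, where 1.69% did.

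CPS1, the enzyme that commits ammonia to the cycle, followed the array number. Its 6 arrays numbered 1 ran from 7.40 to 7.72, those numbered 2 from 7.71 to 8.36 and those numbered 3 from 8.31 to 8.77. The averaged T3 difference of CPS1 was -0.007 with a 95% interval of -0.48 to 0.46, which the block narrowed to -0.17 to 0.16. OTC, the next enzyme, was higher on average in the arrays numbered 1 (mean 4.23) than in those numbered 2 (3.46) and 3 (3.45). The ranges overlapped, the number 1 arrays lying between 3.69 and 4.87 and the others between 3.17 and 3.85. OTC measured 4.24, 3.69 and 3.85 on vehicle and 3.69, 3.42 and 3.25 on T3 in the TRα1 pool, lower in 3 of 3 pairs. The OTC difference there was -0.47 ± 0.39 (SE) with adjusted p-values of 1 (no block) and 0.73 (block), so it was not called.

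NAGS, which makes the activator of CPS1, had an averaged T3 difference of -0.089 (95% interval -0.22 to 0.040). In the control pool NAGS read 7.04, 7.21 and 7.11 on vehicle and 6.999, 7.02 and 6.91 on T3. These groups did not overlap, which held in that pool for 2 members, NAGS and TDO2, and for 6.16% of features. The adjusted p of NAGS there was 1 without and 0.859 with the block. The cytosolic enzymes ASS1, ASL and ARG1 had averaged T3 differences of -0.094, -0.050 and -0.13, all with an adjusted p of 1. ARG1, the enzyme that splits arginine into urea and ornithine, was lower on T3 in 8 of 9 pairs. BHMT differed by 0.089 (95% interval -0.15 to 0.33), HAL by -0.044 (-0.27 to 0.19) and TDO2 by -0.036 (-0.22 to 0.15). Of the 10 averaged differences 2 lay above 0, against 42.2% of all features, with a median of -0.047 for the members and -0.014 for all features.

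OTC, ARG1 and TDO2, which opens the tryptophan ring, lay in the lowest 25% of features by mean, below 4.52.

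The second question is how the pools differed whether or not T3 was given. BHMT, which remethylates homocysteine to methionine with betaine, was higher in the TRα1 pool than in both others. On vehicle BHMT measured 6.72, 6.19 and 6.68 with TRα1, 5.62, 5.58 and 5.88 with TRβ1 and 5.61, 5.43 and 5.63 in control. On T3 it measured 6.59, 6.07 and 6.90 with TRα1, 6.07, 5.61 and 5.76 with TRβ1 and 5.91, 5.71 and 5.54 in control. All 6 arrays of the TRα1 pool lay above the 12 others, the closest being array 2 on T3 of TRα1 and array 1 on T3 of TRβ1, which both round to 6.07. Control and TRβ1 values overlapped.

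Over vehicle and T3, BHMT was 0.89 ± 0.14 (SE) higher in the TRα1 pool than in the control pool, a ratio of 1.85, higher in 6 of 6 pairs. It passed limma's test with adjusted p-values of 0.00228 (no block) and 6.1e-05 (block), and in each fit with 1 array left out (5.1e-04 to 0.0102). The 6 pairs are 3 array numbers, each counted on vehicle and on T3. Neither model allows for arrays of 1 number being alike within a pool. TRβ1 minus TRα1 was -0.77 ± 0.14, lower in 6 of 6 pairs, with adjusted p-values of 0.0187 (no block) and 6.2e-04 (block). TRβ1 minus control was 0.11 (95% interval -0.18 to 0.41), with an adjusted p of 1, and 0.642 with the block. The complete separation seen for BHMT occurred in 1.77% of features for TRα1 against control and in 0.759% for TRβ1 against TRα1. No member was so separated between TRβ1 and control, where 1.06% of features were. The T3 differences of BHMT were -0.014 in TRα1, 0.12 in TRβ1 and 0.16 in control, each with an adjusted p of 1 and of 0.928 to 1 with the block.

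On vehicle alone BHMT was 0.98 ± 0.20 (SE) higher in the TRα1 than in the control pool, by 1.11, 0.76 and 1.05 in the 3 pairs. The adjusted p was 0.0461 without and 0.00183 with the block. The adjusted p was 0.0173 to 0.257 with 1 array left out and 0.198 with only the arrays compared, and the call was lost for 14 of the 18 arrays, in every case but those of array 2 of TRα1 vehicle, arrays 2 and 3 of TRα1 T3 and array 1 of TRβ1 T3. TRβ1 minus TRα1 on vehicle was -0.84, with adjusted p-values of 0.26 (no block) and 0.0155 (block). Over vehicle and T3, the difference between TRβ1 and TRα1 lost its call (0.0503 to 0.063) without any 1 of arrays 1 or 3 of either TRα1 group, arrays 1 or 2 of TRβ1 vehicle or arrays 2 or 3 of TRβ1 T3.

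**Figure D3:**
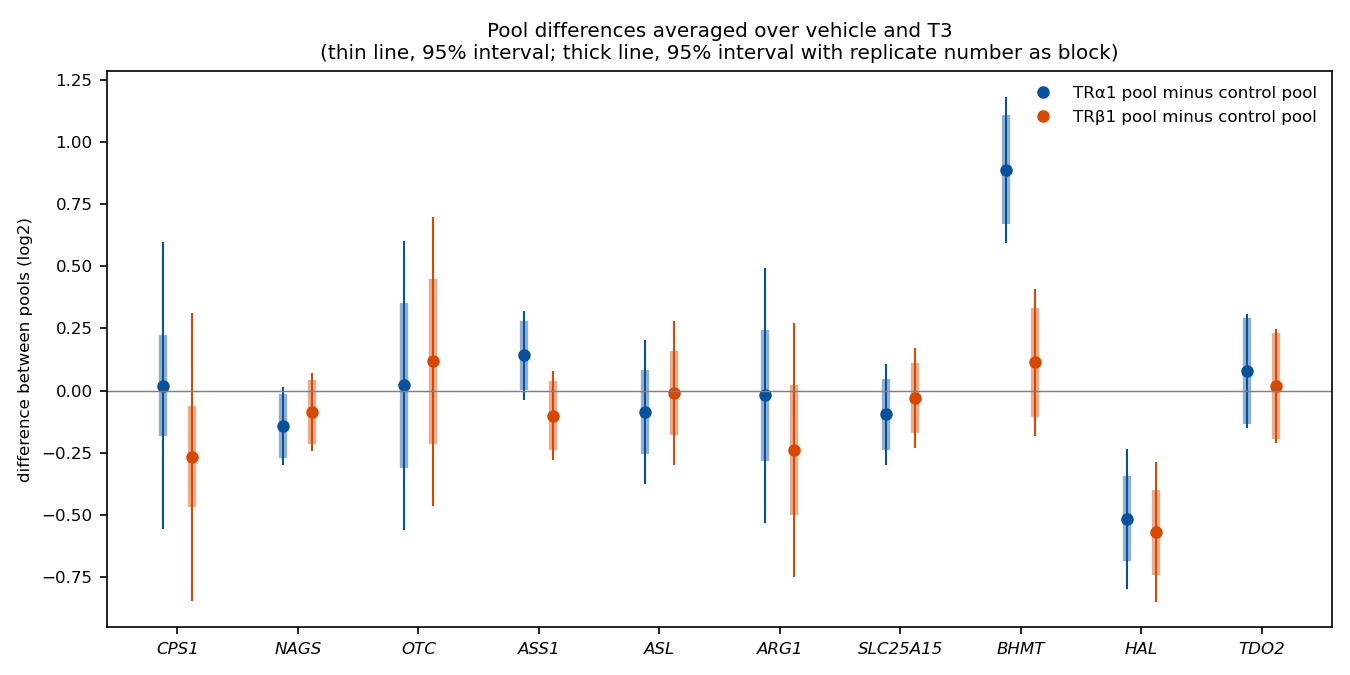
Difference between pools (log2) averaged over vehicle and T3 for the 10 genes, TRα1 minus control and TRβ1 minus control, with the 95% interval without (thin line) and with (thick line) the array number as a block. BHMT stands at 0.89 for TRα1 and 0.11 for TRβ1, and HAL lies below 0 in both, at -0.51 and -0.57.

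HAL, histidine ammonia-lyase, which takes the first step of histidine breakdown and releases ammonia, read lower with either receptor than in control, a difference that passed with the block. On vehicle it measured 5.29, 5.72 and 5.42 in control, 4.80, 5.14 and 5.01 with TRα1 and 4.51, 4.95 and 5.05 with TRβ1. On T3 it measured 5.06, 5.65 and 5.47 in control, 4.62, 4.93 and 5.04 with TRα1 and 4.77, 4.77 and 5.17 with TRβ1. On vehicle all control arrays lay above all arrays of both receptor pools, which 7.67% of features show for TRα1 and 6.59% for TRβ1, in either direction. On T3 the control array 1 lay within the range of the TRβ1 pool and above all of TRα1.

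Over vehicle and T3, HAL differed from control by -0.51 ± 0.13 (SE) for TRα1 and by -0.57 ± 0.13 for TRβ1, lower in 6 of 6 pairs each. Without the block neither passed limma's test (adjusted p = 0.0831 and 0.102), and with it both did (9.0e-04 and 8.8e-04). On vehicle the differences were -0.50 and -0.64, with adjusted p of 0.748 and 0.641 without and 0.0335 and 0.0136 with the block. With 1 array left out and no block, the TRα1 difference over vehicle and T3 had an adjusted p of 0.0362 to 0.232. The TRβ1 difference had one of 0.0418 to 0.295. Both passed only without array 1 of the control T3 group. TRβ1 and TRα1 differed by -0.053 (95% interval -0.34 to 0.23). Both receptor pools were set against the same control arrays, so their agreement for HAL is not independent.

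No other member passed between pools by either model. For ASS1, which condenses citrulline with aspartate, TRβ1 minus TRα1 was -0.24, lower in 6 of 6 pairs, with adjusted p-values of 0.587 (no block) and 0.0796 (block). For CPS1 it was -0.29, again lower in 6 of 6 pairs, with adjusted p-values of 1 (no block) and 0.182 (block). NAGS differed by -0.14 (95% interval -0.30 to 0.016) between TRα1 and control. For SLC25A15 the pools differed by -0.096 (TRα1 minus control, -0.30 to 0.11) and -0.028 (TRβ1 minus control, -0.23 to 0.17). OTC, ASL, ARG1 and TDO2 differed by -0.24 to 0.12 from control in the receptor pools.

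As counts without the block, 1 of 10 members, BHMT, passed for TRα1 against control (1.38% of features) and 1, BHMT, for TRβ1 against TRα1 (0.35%). For TRβ1 against control 0 of 10 passed by limma (0.38%), and 1 member, HAL, had an unadjusted p under 0.05, as did 1227 of all 20546 features. With the block these were 2 (BHMT and HAL, 7.54%), 1 (BHMT, 2.2%) and 1 (HAL, 3.61%). On vehicle without the block, 1 (BHMT, 0.307%), 0 (0.117%, TRβ1 against control) and 0 (0%, TRβ1 against TRα1) passed. For the last 2 contrasts, 1 and 2 members had an unadjusted p under 0.05, as did 722 and 593 of all features. With the block 2 (BHMT and HAL, 2.07%), 1 (HAL, 0.735%) and 1 (BHMT, 0.54%) passed on vehicle. For the difference of T3 responses between pools, 0 of 10 members passed in limma in any of the 3 contrasts by either model, and none had an unadjusted p under 0.05. The features called were 0%, 0% and 0% without the block (286, 275 and 223 at an unadjusted p under 0.05) and 0.0292%, 0% and 0% with it (770, 835 and 619).

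Some hepatocyte markers also differed between these pools. TRα1 minus control was -0.70 for TTR (limma, adjusted p = 0.00211) and -0.31 for AFP (adjusted p = 0.0149). These were 2 of the 9 hepatocyte markers, in a contrast where 1.38% of all features passed. With the block 3 of 9 were lower and 1 higher, where 7.54% of all features passed. The mean of the 9 markers ranged over the 6 groups from 11.9 to 12.01. Over the 6 groups the mean lay between 7.39 and 7.54 for 5 cholangiocyte markers and 5.45 and 5.60 for 5 stellate or fibroblast markers. It lay between 4.70 and 4.83 for 5 macrophage or leukocyte markers and 4.16 and 4.31 for 4 endothelial markers. Single macrophage or leukocyte markers ran from PTPRC at 2.46 to CD68 at 8.50, and cholangiocyte markers from CFTR at 3.01 to EPCAM at 10.7. The part of the hepatocyte markers in the BHMT difference was not tested.

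BHMT lies beside its close relative BHMT2, which uses a different methyl donor, and beside DMGDH, which degrades the dimethylglycine that BHMT produces. In RefSeq the order of protein-coding genes is DMGDH, BHMT2 and BHMT. BHMT2 measured 7.05 to 7.53 over the 6 arrays with TRα1, 6.996 to 7.39 in control and 6.59 to 6.72 with TRβ1. The TRβ1 values lay below all others. In limma, BHMT2 in the TRβ1 pool differed from control by -0.59 ± 0.089 (SE, adjusted p = 0.00444, block 3.1e-04) and from TRα1 by -0.62 ± 0.089 (0.00365, block 2.3e-04). In the TRα1 pool BHMT2 differed from control by 0.039 (95% interval -0.15 to 0.23), where BHMT differed by 0.89. DMGDH in TRβ1 differed from TRα1 by -0.36, with adjusted p-values of 0.245 (no block) and 0.023 (block). With 1 array left out and no block, the adjusted p of DMGDH was 0.0288 to 0.57. It passed only without array 2 of control vehicle (0.0288), an array outside this contrast, and the difference stayed at -0.36. A different pool stood apart for BHMT and for BHMT2, and the contrast between the genes was not itself tested.

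**Figure D4:**
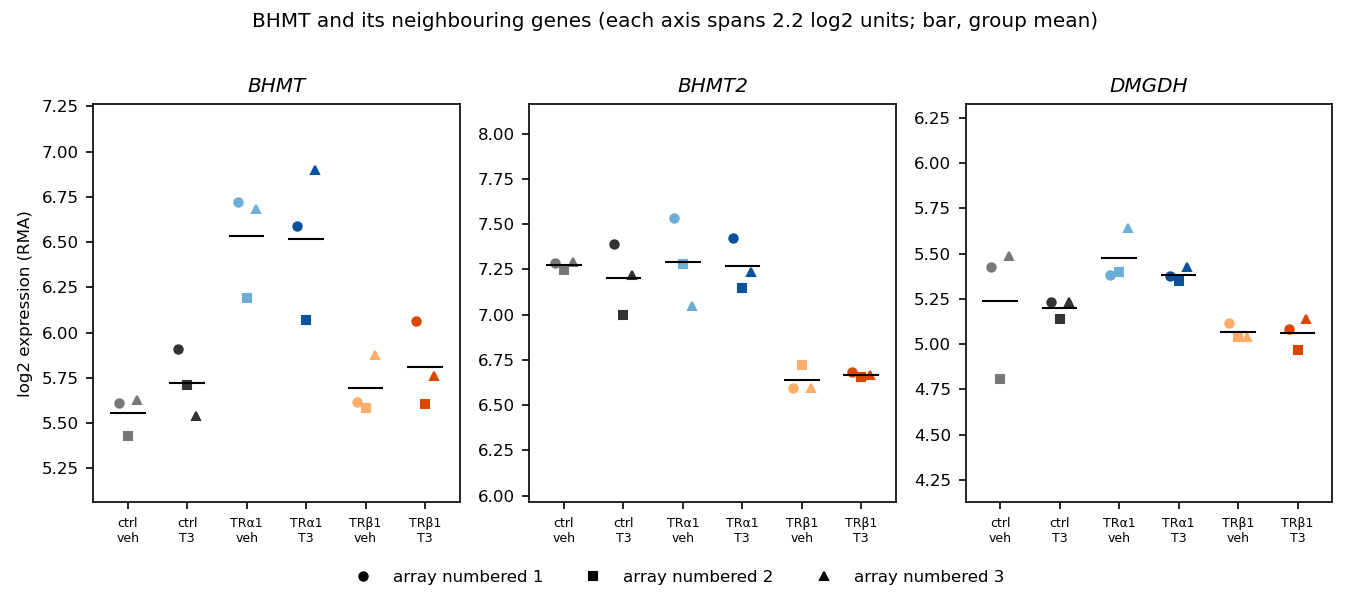
Log2 expression of BHMT and of its neighbours BHMT2 and DMGDH on the 18 arrays, by pool and treatment, with a bar at each group mean and the array number as the symbol. BHMT is high in the TRα1 pool (6.07 to 6.90) and BHMT2 is low in the TRβ1 pool (6.59 to 6.72).

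The genes whose profile over the 18 arrays was most like BHMT, after the mean of each array number was subtracted, were TBC1D1 (Pearson r = 0.947), SERPING1 (0.940) and ARAP2 (0.926). SERPING1, an inhibitor of complement proteases, averaged 6.85 ± 0.22 (SD, n = 3) on vehicle with TRα1, 5.86 ± 0.27 with TRβ1 and 5.73 ± 0.22 in control. Like BHMT, SERPING1 thus read high with TRα1. For HAL they were NFE2L2 (0.920), a regulator of antioxidant genes, SLC2A9 (0.916) and USP24 (0.916). SLC2A9, a urate transporter, averaged 8.45 ± 0.040 (SD, n = 3) on vehicle in control, 8.22 ± 0.058 with TRα1 and 8.19 ± 0.099 with TRβ1. The 18 arrays share the 3 pools, and likeness was selected from the whole table, so these are descriptions with no test.

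Other genes of amino acid metabolism were followed by 9 lists with 159 entries, of which 144 were measured. The lists were chosen with earlier results of these data known, so a share beside that of all features is a description and no test. With T3 averaged over the pools, 2 of the 144 rose and 0 fell without the block (1.39%, against 0.423% of all features), and 9 rose and 2 fell with it (7.64%, against 1.69%). The median difference was -0.031, and -0.014 over all features. The 2 were transporters. SLC38A3, which moves glutamine and is prominent in liver, rose by 0.46 ± 0.065 (SE) in 9 of 9 pairs (limma, adjusted p = 0.00175). SLC1A2, a glutamate transporter, rose by 0.68 ± 0.12 in 8 of 9 pairs (adjusted p = 0.0139). The other 16 of 18 transporters did not pass without the block. In the list of other urea cycle and ammonia genes, 9 of 13 entries were measured and 0 of 9 passed for averaged T3 in limma by either model, with 0 at an unadjusted p under 0.05 without the block and 2 with it. Of all 20546 features, 784 had such a p without the block and 2126 with it.

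For T3 averaged over the pools without the block, 2 transporters (SLC38A3 and SLC1A2, higher) passed in limma, and 0 genes in the other pathway lists, with between 0 and 4 at an unadjusted p under 0.05 in each. With the block, 1 of 14 genes of arginine use and polyamines passed (SAT1, higher), 1 of 17 of methionine, choline and one-carbon metabolism (CDO1, higher), 1 of 16 transaminases and related enzymes (ETNPPL, higher) and 4 of 18 transporters (3 higher, 1 lower). Of 17 regulators of urea cycle genes CEBPA and CEBPB were higher and PPARGC1A lower. None of 19 genes of branched-chain amino acid breakdown and 12 of the amino acid stress response passed, with 3 and 1 at an unadjusted p under 0.05. The marker lists gave 1 of 9 for hepatocytes (FGB, higher) and 0 of 19 for the other cell types, 2 of these at an unadjusted p under 0.05.

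HAL and TDO2 open routes whose later enzymes were followed too. In the list of histidine, tryptophan, tyrosine and phenylalanine breakdown, 0 of 22 measured genes passed for T3 averaged over the pools without the block (2 at an unadjusted p under 0.05), and 1, HGD, with it. HGD, which cleaves the aromatic ring in tyrosine breakdown, differed by 0.35 ± 0.16 (SE, 0.041 with the block), higher in 9 of 9 pairs, with adjusted p-values of 1 (no block) and 1.4e-04 (block). Among transaminases and related enzymes ETNPPL differed by 0.57 (0.552 without, 7.7e-05 with the block) and among regulators of urea cycle genes the transcription factor CEBPB by 0.62 (0.0749 without, 0.00189 with). With 1 array left out, CEBPB had an adjusted p without the block of 0.026 to 0.185. It passed only without array 2 of TRα1 vehicle (0.0328) or array 3 of TRα1 T3 (0.026).

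Between the TRα1 and control pools, 2 genes of these lists were higher and 2 lower without the block (2.78% of the 144, against 1.38% of all features). AADAT, a transaminase of lysine and kynurenine breakdown, was higher by 0.57 ± 0.11 (SE) with an adjusted p of 0.0169, a call lost without array 2 of TRα1 vehicle (0.056), of control vehicle (0.0529) or of control T3 (0.0579). SLC6A12, which carries betaine, the methyl donor that BHMT uses, was higher by 1.097 ± 0.12 (7.9e-05), in 6 of 6 pairs. SLC7A11, the cystine importer, differed by -0.61 (0.0237) and VLDLR, a lipoprotein receptor on the amino acid stress list, by -0.60 (0.00649). The SLC7A11 call was lost without array 1 of either TRα1 group (0.0605 and 0.0563), arrays 2 or 3 of control vehicle (0.0774 and 0.0594) or array 2 of control T3 (0.0711). For TRβ1 against TRα1, SLC6A12 differed by -0.83 (0.0038), and BHMT2 was the other gene to pass. With the block the TRα1 against control count was 17 higher and 16 lower of 144 (22.9%, against 7.54% of all features). Because the lists were chosen with earlier results of these data known, the difference between such shares was not tested. MAT1A, which makes S-adenosylmethionine from methionine, was 0.51 higher in the TRβ1 pool than in control, with adjusted p-values of 0.313 (no block) and 3.6e-05 (block).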

How the data were processed

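RNA from 18 HepG2 samples was hybridised to single-colour Affymetrix gene arrays, 200 ng of total RNA each. Per the submitters' processing notes, the authors made the deposited log2 values with RMA, run under R 2.7.1. The genome build behind the features is not given in the sources used here. Of 32321 features, 20546 carried a gene symbol in GEO's platform annotation (19158 a single gene and 1388 several) and were tested, and 11775 without one were left out. A linear model with 6 groups and 1 residual variance per feature (12 residual degrees of freedom) was fitted with limma 3.58.1 in R 4.3.3 and tested by its empirical Bayes method for 13 contrasts, two-sided, with Benjamini-Hochberg adjustment over all tested features within a contrast and a threshold of 0.05. Intervals are 95%. The p-values measure only the spread between samples that the labels call independent biological repeats.

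Once group means had been removed, each of 45 pairs that had a number but no group in common was positively correlated, the lowest at 0.259, and 18 of 18 arrays correlated best with one of their own number. The numbers were read as pairing the arrays. The planned model has no such term, and the model with the number as a block (10 residual degrees of freedom) is printed where it changes a call. The median standard error of a T3 difference was 0.157 without and 0.107 with the block.

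All 10 members are named, with up to 2 passing genes per list and contrast, the receptors, and the 3 features most correlated with each of the 2 members with the widest group means. Those named from the model with the block, BHMT's neighbours and SLC25A2 were chosen after their values were seen. The members, the 9 pathway lists and the 5 marker lists were chosen with earlier results of these data known. Alternatives were the block, array weights, centred arrays, no dim features, unnamed features, the compared arrays alone, each array left out, and, chosen after seeing the data, only arrays numbered 2 and 3. The model was tested on simulated data. Promoter sequences are from RefSeq, GRCh38.p14.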

Additional observations from a re-analysis of the deposited data

Results flagged for a closer look

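TDO2, the enzyme that opens tryptophan, passed no test for T3, but its same-numbered pairs lay on opposite sides of 0 in the TRβ1 and control pools. In the TRβ1 pool it measured 2.55, 2.55 and 2.76 on vehicle and 2.66, 2.96 and 2.77 on T3, higher in 3 of 3 pairs by 0.11, 0.41 and 0.013. In the control pool it measured 2.71, 2.88 and 2.80 on vehicle and 2.60, 2.52 and 2.65 on T3, lower in 3 of 3 pairs by -0.11, -0.36 and -0.16. The difference between the responses was 0.39 (95% interval -0.069 to 0.84), and limma's test of it gave an adjusted p of 1, also when the array number was a block. TDO2 lies in the lowest 25% of features by their mean over the 18 arrays. The share of all features with pairs on opposite sides in this way was not counted, so the pattern is a description only.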

How the results depend on the processing

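With the replicate number as a block the features called rose to 137 (from 27) for T3 in the TRα1 pool, 98 (15) in TRβ1, 20 (2) in control and 347 (87) in the average, 6 (0) for the response of TRα1 minus control, 425 (63), 151 (24) and 111 (0) for TRα1 minus control, TRβ1 minus control and TRβ1 minus TRα1 on vehicle, and 1550 (284), 741 (78) and 453 (72) for the same over vehicle and T3. Members called under the block were 1 (from 0) for averaged T3, 2 (1), 1 (0) and 1 (0) on vehicle, and 2 (1) and 1 (0) for TRα1 and TRβ1 minus control over vehicle and T3. With array weights the features called were 41 and 5 for T3 in TRα1 and control, 142 for averaged T3, 1 for the response of TRα1 minus control, 95, 39 and 15 on vehicle and 514, 201 and 124 over vehicle and T3. With only the compared arrays they were 6, 0 and 0 for T3 in the 3 pools, 13 and 0 for TRα1 and TRβ1 minus control on vehicle, and 176 and 33 for TRα1 minus control and TRβ1 minus TRα1 over vehicle and T3. T3 in TRβ1 gave 8 with unnamed features and 4 with only arrays 2 and 3. Centred arrays gave 2 for the response of TRα1 minus control and 2 for TRβ1 minus TRα1 on vehicle. Leaving out 1 array gave 12 to 30, 5 to 17, 2 to 3 and 69 to 92 for T3, 0 to 1 for that response, 29 to 64, 9 to 26 and 0 to 3 on vehicle, and 169 to 279, 56 to 83 and 43 to 70 over vehicle and T3.

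Members called for averaged T3 were 1 without the dimmest 25% of features, with array weights and with centred arrays, and 0 to 1 with 1 array left out. On vehicle TRα1 minus control gave 0 with only the compared arrays, unnamed features, centred arrays or arrays 2 and 3, and 0 to 1 with 1 array left out. Over vehicle and T3, array weights, centring and arrays 2 and 3 gave 2 for TRα1 and 1 for TRβ1 minus control, with 1 to 2 and 0 to 1 when 1 array was left out. TRβ1 minus TRα1 gave 0 with only the compared arrays or arrays 2 and 3, and 0 to 1 when 1 array was left out.

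BHMT for TRα1 minus control over vehicle and T3 passed in every alternative run. Reversed signs were all of differences not called. CPS1 averaged T3 was 0.0035 with centring and -0.12 to 0.093 with 1 array left out. TDO2 was 0.0011 with array weights, 0.025 with arrays 2 and 3 and -0.096 to 0.010 with 1 array left out, ASL -0.11 to 0.019 and HAL -0.098 to 0.011. For SLC25A15 the response of TRβ1 minus TRα1 was -0.018 with centring, -0.042 with arrays 2 and 3 and -0.11 to 0.098 with 1 array left out. SLC25A2 gave -0.020 with arrays 2 and 3, and HAL for TRβ1 minus TRα1 -0.12 to 0.028. The cause was not tested. Averaging features of a gene was not run because each member has 1, and OTC, ARG1 and TDO2 have no value without the dimmest 25% of features. Signal over background was not tested, and 3 arrays per group and 1 pool per construct limit the precision for all 10 genes.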
